A study of Xenopus tropicalis with 54 samples.

Results

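In 1 list of Bcat-bound regions of the *Xenopus tropicalis* gastrula, 273 chromosomal stretches held 5 or more Bcat peaks in close succession. They are called dense clusters here. Peaks on the assembled chromosomes were sorted by position, and a peak was joined to the one before it when the gap between them was at most 12.5 kb. Every peak in a chain of at least 5 was taken as a member. Of the 10752 peaks on the 10 chromosomes, 1879 were members (17.5%), and the other 8873 stood alone or in chains of 2 to 4. A further 959 peaks of the 11711 in the whole list lay on unplaced scaffolds and were not chained. The members were chosen by position alone, so their number, spans and gaps are descriptions and carry no test.

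The peaks come from 1 published Bcat ChIP-seq library of *Xenopus tropicalis* gastrulae at Nieuwkoop and Faber stage 10.5 (NF10.5), in which Bcat was immunoprecipitated from whole embryos, so peaks of different cells are pooled and no replicate spread can be given. The list was deposited under the name of Sox17, yet all 1999 Bcat-bound peaks of the study's gene tables used here stood in it with the same start and end, and 0 of 1999 Sox17-bound peaks did. The series has 54 samples, all whole embryos of the Nigerian strain. There are 2 Sox17 ChIP-seq samples at NF10.5, and RNA-seq of 12 Sox17-MO embryo samples from NF9 to NF12 and 14 Bcat-MO samples from NF7 to NF12, where MO is a morpholino against the named protein, with 12 and 14 control samples of the same stages. Sample titles mark controls as uninjected, whereas the methods describe a control morpholino. No value of these 54 samples was read and no expression value is given. Some gene names come from the study's table of Bcat-regulated genes. The Sox17-bound peaks and the windows bound by Sox17 and Bcat, used below, rest on the study's own calls from these samples. The list gives positions and no peak height, so sequencing depth is unknown and strong peaks cannot be told from weak ones.

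Bcat (β-catenin) is the effector of canonical Wnt signalling. Without a Wnt signal it is degraded in the cytoplasm, and with one it enters the nucleus and acts on genes through DNA-binding partners, above all the Tcf/Lef proteins. In the frog embryo a maternal Bcat signal on the dorsal side sets up the Spemann organizer, and a later zygotic Wnt signal patterns the ventral and posterior tissues. Genes of early development often have several cis-regulatory modules (CRMs), stretches of DNA where transcription factors gather, spread over many kilobases around them.

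For 3 CRMs that the study tested as enhancers in embryos and that lie in dense clusters, the DNA sequence is shown, since the list itself holds positions only. Tcf/Lef proteins bind sequences with CAAAG at their centre and Sox proteins bind sequences with ACAAT, so these letters were searched on both strands. AACAAT, a longer form that contains ACAAT, was searched too. Capitals mark the matches, on either strand. From each enhancer the middle 300 bases of the part that lies in a Bcat peak are printed, in the orientation given by the study, whose strand is not stated. The capitals do not show the Tcf sites that the study mutated. Both printed CAAAG matches are unchanged in its Tcf-mutant sequences, and the CAAAG matches it did change lie outside the printed stretches. The Tcf sites it changed in the -1.6 kb enhancer, where printed, stand in lower case. Coordinates follow the study's v9.0 positions, and those of the -1.6 kb enhancer rest on its start alone.
dkk1 -1.6 kb enhancer: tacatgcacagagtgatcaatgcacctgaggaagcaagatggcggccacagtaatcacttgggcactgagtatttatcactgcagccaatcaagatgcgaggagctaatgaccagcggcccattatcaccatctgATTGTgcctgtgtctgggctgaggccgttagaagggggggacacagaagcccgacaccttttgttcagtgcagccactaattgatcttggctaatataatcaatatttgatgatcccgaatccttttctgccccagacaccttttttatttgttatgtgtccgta
dkk1 -7.5 kb enhancer: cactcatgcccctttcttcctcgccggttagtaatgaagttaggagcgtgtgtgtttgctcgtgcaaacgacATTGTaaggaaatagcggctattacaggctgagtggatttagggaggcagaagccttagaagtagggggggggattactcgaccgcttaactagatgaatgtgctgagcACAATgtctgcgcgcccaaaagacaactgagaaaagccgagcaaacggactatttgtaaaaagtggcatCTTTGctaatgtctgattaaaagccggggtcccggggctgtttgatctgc
lhx5 TSS enhancer: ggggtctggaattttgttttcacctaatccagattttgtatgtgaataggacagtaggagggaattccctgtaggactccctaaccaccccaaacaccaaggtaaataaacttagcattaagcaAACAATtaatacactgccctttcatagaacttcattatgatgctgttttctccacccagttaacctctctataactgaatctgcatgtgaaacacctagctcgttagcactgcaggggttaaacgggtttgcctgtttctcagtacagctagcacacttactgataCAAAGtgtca
The first stretch is chr7:5571936-5572235 in a Bcat peak from 5571918 to 5572254 (337 bp wide), the second chr7:5566061-5566360 in a peak from 5565904 to 5566492 (589 bp), and the third chr1:133702191-133702490 in a peak from 133702033 to 133702665 (633 bp). All 3 peaks are members. The name TSS (transcription start site) of the *lhx5* enhancer follows the study's sequence list, whereas its main text gives this enhancer a position upstream of the start. *dkk1* encodes a secreted Wnt antagonist of the organizer, and *lhx5* a LIM homeobox transcription factor of the anterior neural plate.

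Over the whole enhancer sequences, CAAAG matched 4 times in the -7.5 kb *dkk1* enhancer (456 bases) and 3 times in the *lhx5* enhancer (400 bases). It matched 0 times in the -1.6 kb *dkk1* enhancer (400 bases). ACAAT matched 2, 1 and 1 times in the same order, and AACAAT once, in *lhx5*. The study nonetheless predicts Tcf sites in the -1.6 kb enhancer. Mutating them there abolished reporter expression in the dorsal mesendoderm, so a lack of CAAAG is not a lack of Tcf sites. Shorter sequences of 150 bases, enhancers of *osr1* and *igf3* that lie in no Bcat peak of the list, were searched too. The study nonetheless counts both stretches among its windows bound by Sox17 and Bcat, so its windows and the list differ there. The study reports both as activated by Sox17 together with Bcat. It picked them as enhancers without evidence of Tcf sites, so their lack of CAAAG is no independent comparison. CAAAG was in 2 of the 5 sequences, both of them in dense clusters, ACAAT in all 5, and AACAAT in 1. Letters as short as these are frequent in any DNA, the sequences differ in length, and a match is not a measured binding site. ChIP-qPCR primers of the study were found in the sequences of the distal *dkk1* enhancer and of *lhx5*. In the -7.5 kb *dkk1* enhancer they span bases 139 to 259 (chr7:5566121-5566241), a part of the printed stretch that holds 1 ACAAT match, on the reverse strand. In the *lhx5* enhancer they span bases 139 to 270 (chr1:133702279-133702410), which hold the AACAAT match.

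The dense clusters spanned 5769 to 84160 bp from first to last peak, with a median of 22527 bp and quartiles of 16478 and 30233 bp. Clusters of 5 peaks were the most frequent (103 of 273), followed by 65 of 6, 38 of 7, 20 of 8 and 18 of 9 peaks. The remaining 29 had 10 or more peaks and together held 386 members. Only 3 clusters had more than 16 peaks, with 24, 26 and 32. In all, the clusters covered 6.82 Mb, and the peaks themselves filled 931 kb of it, or 13.6%. Members were 17.5% of the chromosome peaks and made up 20.1% of their summed width.

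**Figure D1:**
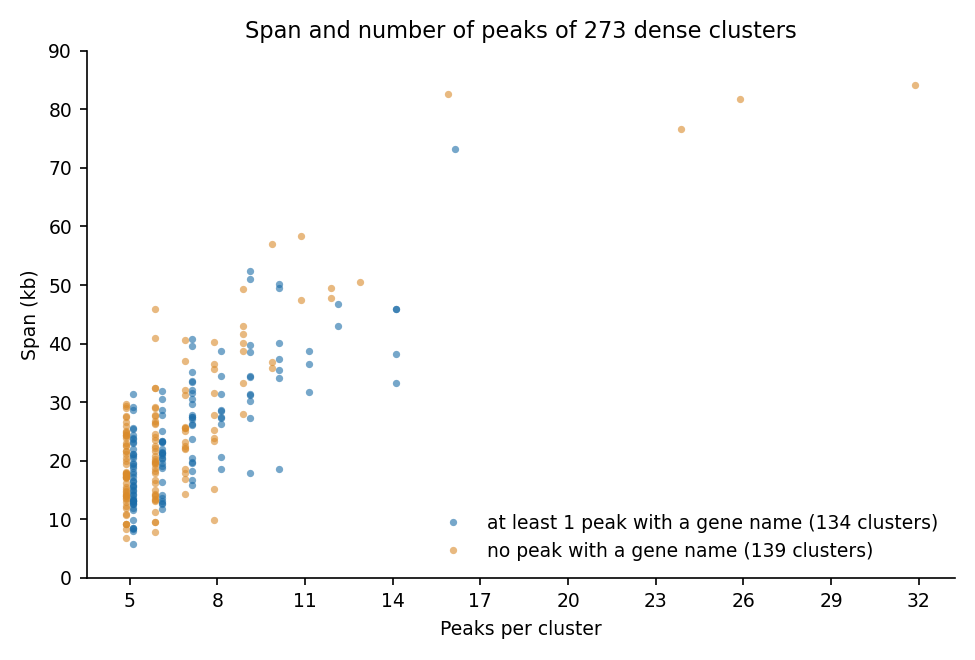
Span of each dense cluster in kb (y axis) against its number of peaks (x axis), 1 point per cluster, with points shifted slightly sideways by group. Clusters of 5 peaks ran from 5.77 kb upwards, and the 3 clusters with 24, 26 and 32 peaks spanned 76.7, 81.8 and 84.2 kb.

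Neighbouring members were separated by a median of 2662 bp (quartiles 1131 and 5707 bp, 1606 gaps). The shortest gap was 53 bp. A gap under 500 bp was seen 172 times (10.7% of gaps) and one under 1000 bp 350 times (21.8%), whereas 94 gaps (5.85%) were over 10000 bp. The longest gap inside a cluster, 12469 bp, was in the *bambi* cluster, and the shortest gap that ended a chain was 12507 bp. Many clusters had further peaks close by. The nearest outside peak was at a median of 27090 bp from the cluster's end, and for 126 of 273 clusters it lay within 25 kb. Chains of 5 peaks, the shortest that qualified, had a median gap of 3007 bp (103 chains), and chains of 4 peaks, just short of the rule, one of 3048 bp (195 chains). Both were built with the same 12.5 kb limit.

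**Figure D2:**
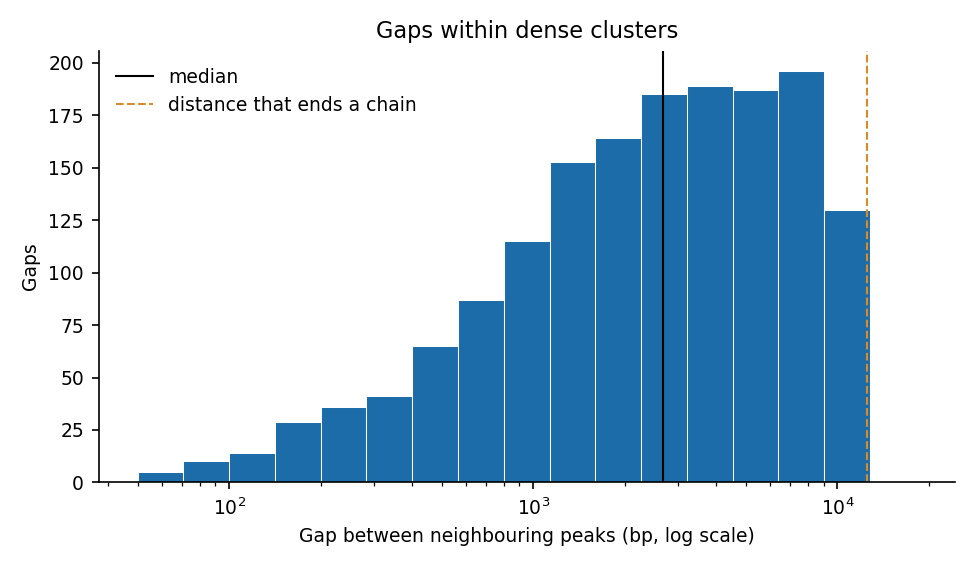
Number of gaps between neighbouring peaks of a dense cluster (y axis) by their length in bp (x axis, log scale, bins of equal width on that scale). The solid line is the median of 2662 bp, and the dashed line is the 12.5 kb distance that ended a chain.

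The density of peaks differed between clusters. The median was 2.82 peaks per 10 kb of span. The loosest cluster, 6 peaks on chromosome 1 between 120155008 and 120200891 with no gene name in the Bcat tables used here, had 1.31, and the tightest, 5 peaks on chromosome 6 between 105697337 and 105703105, had 8.67. All 5 peaks of the tightest cluster were assigned to *eya1*, which encodes a phosphatase and transcriptional cofactor of sensory placodes. They were separated by 96, 925, 1816 and 736 bp and filled 38.1% of the 5769 bp. Peaks filled a median of 13.3% of a cluster's span, and the highest share, 52.0%, was in a cluster on chromosome 2 (142426374 to 142440591) in which a single peak was 4897 bp wide. That peak was the widest member of all.

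Genes were read from 2 of the study's own tables, where each peak is given to the gene with the nearest transcription start site. The first lists Bcat peaks, 1999 of which were used. The second gives the Bcat peaks of genes that changed in Bcat-MO embryos. Only identical coordinates were accepted. Together they name 3667 peaks of the list, so the names are weighted to Bcat-regulated genes. The tables used here name 754 members (40.1%), against 30.3% of the other chromosome peaks, and give at least 1 name in 134 of the 273 clusters. In 84 clusters every peak had a name, and 74 of these named a single gene. A cluster without a name is one these Bcat tables do not cover. Where 2 neighbouring members both had a name, it was the same gene in 599 of 615 cases, with a median gap of 2392 bp. The 16 gaps between peaks of different genes had a median of 6543 bp. Pairs with an unnamed peak are not counted here, and assignment to the nearest start itself tends to give neighbours the same gene. No such share was taken for pairs outside the clusters. In all, 143 genes named a member, 93 of them 5 members or more.

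The longest cluster also held the most peaks. Its 32 peaks lay on chromosome 1 between 160279735 and 160363894, with a median gap of 1520 bp, the longest 10305 bp, and peaks 268 to 940 bp wide. The next largest held 26 peaks on chromosome 3 (131582736 to 131664578) and 24 peaks on chromosome 7 (18595904 to 18672592). None of these 82 peaks had a gene name in the Bcat tables used here. Inside the chromosome 7 cluster lay Sox17-bound peaks assigned to *ventx3.1*, a homeobox gene of the Vent family, whose members repress dorsal genes on the ventral side. A cluster of 16 peaks on chromosome 2 (121710437 to 121793103) was also without a name. Another 16 peaks on chromosome 9 (54673572 to 54746716) included 3 of *gbx2.2*, which encodes a homeobox factor of the posterior neural plate, and the other 13 had no name.

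Of the 4 clusters with 14 peaks, the one at *not* was assigned to a single gene throughout. *not* encodes a homeobox factor of the organizer and notochord, and all 14 of its listed peaks were in this cluster, between 10474790 and 10513041 on chromosome 1. They formed 2 groups, 9 peaks in the first 14.8 kb and 5 in the last 11.4 kb, with 12097 bp between them. This gap is close to the limit of 12.5 kb, and a shorter limit would have given 2 clusters. The widest *not* peak (1221 bp) was number 13 in order, near the far end. Another 14 peaks on chromosome 1 (9360861 to 9406699) included 12 of *cdc25b*, a phosphatase that starts mitosis, and these were all 12 peaks listed for that gene. On chromosome 5, 9 of 14 peaks between 121530987 and 121576890 were given to LOC101733909, which has no symbol here.

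The last of these clusters joined 4 genes of the Hes family, basic helix-loop-helix repressors that act downstream of Notch. Between 91349582 and 91382833 on chromosome 7 lay, in order, 2 peaks of *hes5.5*, 1 of *hes9.1*, 8 of *hes5.8* and 3 of *hes5.9* (the last pair are listed as LOC100495414 and LOC733709, and RefSeq gives the symbols). The 8 peaks of *hes5.8* included 5 in a run of 3525 bp, separated by 133, 220, 145 and 239 bp. No Hes peak of these 4 genes was listed outside the cluster. A cluster of 13 unnamed peaks on chromosome 4 (90642582 to 90693020) completes the 10 with the most peaks.

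**Figure D3:**
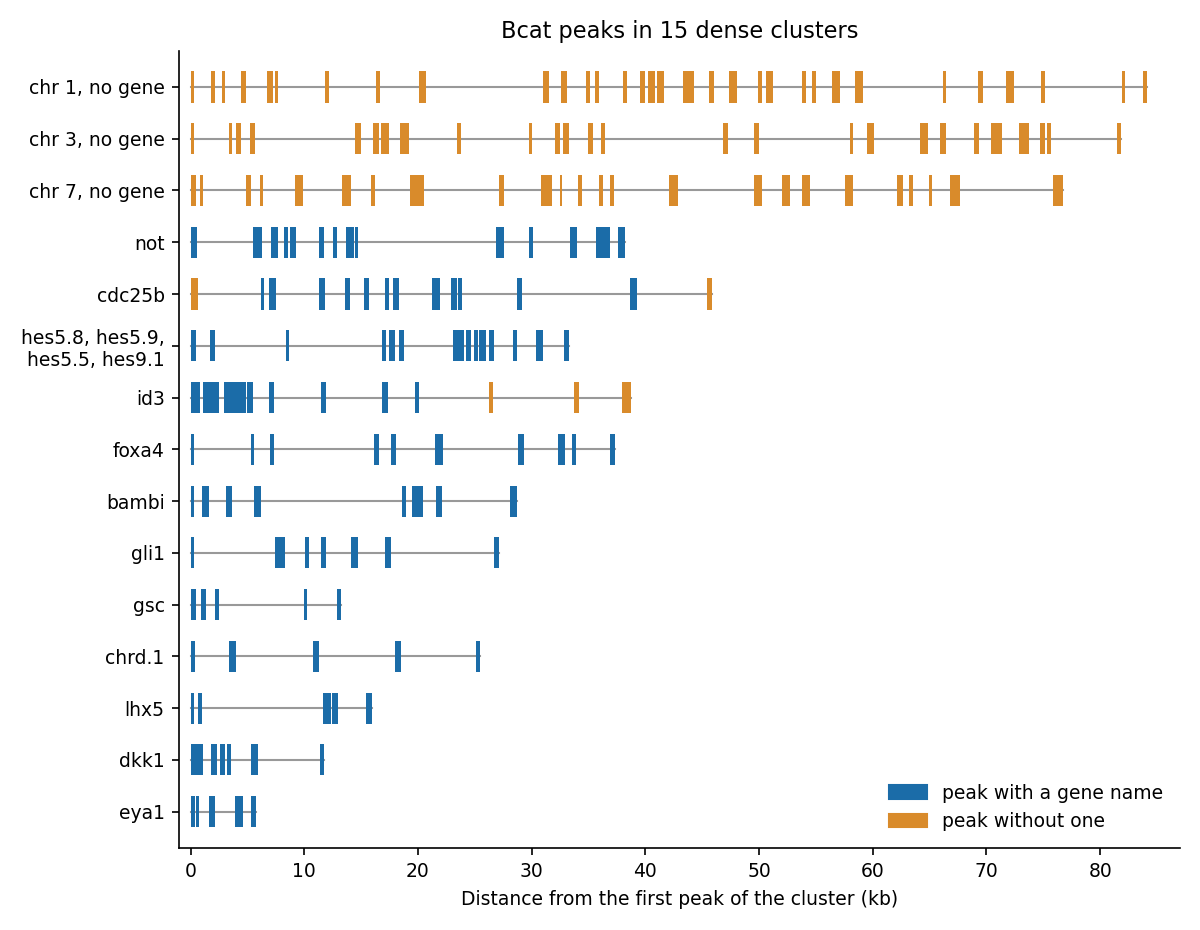
Peaks of 15 dense clusters drawn to scale, from the largest 3 to the tightest, with distance from the first peak in kb on the x axis and 1 cluster per row. Each bar is a peak of its true width, blue where a gene name was found and orange where not, and rows are labelled by chromosome or by the genes named. The 14 peaks of *not* fall into 2 groups, while the 5 peaks of *chrd.1* lie at least 2987 bp apart.

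The genes of several pathways and tissues were then counted in lists. Over all 1488 named genes with a chromosome peak, 143 had at least 1 peak in a dense cluster (9.61%), and 114 had at least 3 (7.66%). A typical named gene has 1 listed peak and cannot fill a cluster, and genes of the lists have more, so the share was also taken over the 161 genes with at least 5 named peaks, of which 100 had a peak in a dense cluster (62.1%). The lists are read against both. They were chosen with earlier results of these data known, and how far the choice of genes sets a list's share was not tested. Both shares are over named genes, which are weighted to Bcat-regulated genes, and not over all genes.

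Of 25 ectoderm and neural transcription factors with a named peak, 19 had one in a dense cluster. So had 18 of the 21 with 5 or more peaks, a share over the 62.1% of all such genes. The homeobox gene *otx1*, of the forebrain and midbrain, named peaks in 3 clusters. They lay within 116722 bp of chromosome 5, with 5, 6 and 5 peaks in order and gaps of 16359 and 41175 bp between the clusters, and these were all 16 peaks listed for the gene. The Iroquois genes, homeobox factors of the neural plate, gave 10 of 13 listed peaks (*irx2*, in 2 clusters), 11 of 16 (*irx3*, in 2 clusters) and 9 of 16 (*irx1*). The SoxB1 genes, which keep neural progenitors undifferentiated, had 8 of 16 peaks for *sox2* and 10 of 16 for *sox3*, the second in 2 clusters only 14553 bp apart. *zic1*, a zinc-finger neural inducer, had 9 of 12 peaks in 17903 bp of chromosome 5. All 6 peaks of the neurogenic gene *hes6.1*, all 5 of the photoreceptor homeobox gene *crx* and all 5 of *foxd4l1.1*, a forkhead gene of the early neural plate, were members. So were 8 of 10 of *foxi4.2*, a forkhead gene of the epidermis, and 8 of 9 of *klf5*, which encodes a zinc-finger factor of epithelia. The neural forkhead gene *foxb1* (8 of 15), the zinc-finger gene *gata3* of non-neural ectoderm (6 of 13) and the neural crest gene *foxd3* (5 of 8) each had peaks in 1 cluster. The same held for *grhl1* (5 of 6), a gene of epidermal differentiation, and *elavl3* (6 of 7), which is on this list as a neuronal gene although it encodes an RNA-binding protein. *foxi4.1* had 1 of 2 peaks, in the cluster of *foxi4.2*.

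The cluster of *lhx5*, on the same list, lay between 133690353 and 133706266 on chromosome 1 and held 5 of the 8 *lhx5* peaks. Its first pair of peaks, 300 and 305 bp wide, was 10698 bp from the other three. These were 633, 503 and 498 bp wide, with gaps of 120 and 2480 bp. The sequence shown above belongs to the 633 bp peak, the widest of the cluster.

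Among genes of the organizer and dorsal mesendoderm, 6 of 14 with a named peak had one in a dense cluster, and 5 of the 9 with 5 or more peaks, a share under the 62.1% of all such genes. *not* is described above. *foxa4*, a forkhead factor of the organizer and endoderm, had all 10 of its peaks in 37365 bp of chromosome 4 (37206362 to 37243726), the closest 636 bp and the farthest 8782 bp apart. *gsc*, the organizer homeobox gene, had all 5 of its peaks in 13187 bp of chromosome 8, the first 3 within 2522 bp. *chrd.1* encodes Chordin, which binds BMPs outside the cell. Its 5 peaks, again all that were listed, were spread over 25412 bp of chromosome 5 with gaps of 2987, 6829, 6685 and 6529 bp and no group of close peaks. *admp*, a BMP-type ligand made in the organizer, named 3 of 7 peaks in its cluster on chromosome 1, and the other 4 had no name.

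Of the Wnt pathway, 4 of 14 genes with a named peak had one in a dense cluster, and 3 of the 7 genes with 5 or more peaks, a share under the 62.1% of all such genes. *dkk1* had 6 of its 9 listed peaks in a cluster of 11696 bp on chromosome 7 (5560559 to 5572254). In order they were 1073, 459, 374, 350, 589 and 337 bp wide, with gaps of 758, 328, 245, 1758 and 5425 bp. The widest stood first and the peak of the -1.6 kb enhancer last, apart from the rest, and the -7.5 kb enhancer was in peak 5. The Wnt receptor gene *fzd8* had 6 of 10 peaks in 13670 bp of chromosome 6, with gaps that varied little, between 1461 and 2601 bp, and *fzd6*, another Frizzled receptor gene, had all 5 of its peaks in 16478 bp of the same chromosome. *dact1*, a modulator of Wnt signalling in the cell, named 2 of 10 peaks.

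BMP pathway genes had 7 of 13 in dense clusters, and 6 of the 9 with 5 or more peaks, a share close to the 62.1% of all such genes. The ligand gene *bmp4* had 6 of 8 peaks in 12558 bp of chromosome 8, of which the widest was 1072 bp, and the receptor gene *bmpr1b* 6 of 8 in 19580 bp of chromosome 1. *bambi*, a pseudoreceptor that blocks BMP signalling, had all 8 of its peaks in 28714 bp of chromosome 6, in 2 groups of 4 separated by the 12469 bp gap. The BMP target gene *id3*, an inhibitor of basic helix-loop-helix proteins, named 8 of 11 peaks on chromosome 2 (52558395 to 52597171). Its first 4 peaks, 832, 1418, 1952 and 489 bp wide, stood only 217, 480 and 94 bp apart. *msx1*, a homeobox target of BMP, had its 10 peaks in 2 clusters of 5 on chromosome 1, 32153 bp apart. *chrd.1* and *admp* are on this list as well.

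Nodal and TGF-beta genes had 3 of 10, but only *lefty*, an inhibitor of Nodal, named 3 or more members. It had all 5 of its peaks among 9 on chromosome 5, and was the only gene of the list with 5 or more. The ligand genes *nodal1* and *nodal2* shared a cluster of 5 peaks on chromosome 3 (121788422 to 121809284), with 2 peaks and 1, and the last 2 belonged to the neighbouring *ash2l*, which encodes a subunit of histone methyltransferases. Of 7 endoderm transcription factors with a named peak, *foxa4* and the T-box gene *eomes* had one in a dense cluster, *eomes* with 6 of 9 peaks in 18757 bp of chromosome 6. They were the only 2 of that list with 5 or more peaks.

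Of 20 mesoderm and posterior transcription factors, 9 had a peak in a dense cluster, each with 3 or more. So had 7 of the 8 with 5 or more peaks, a share over the 62.1% of all such genes. The caudal-type homeobox genes of the posterior body, which Wnt signals are known to activate, had all their listed peaks in clusters, 7 of *cdx2* in 35114 bp of chromosome 2 and 5 of *cdx1* in 23757 bp of chromosome 3. The *cdx1* peaks had a median width of 698 bp. *mespa* and *mespb*, bHLH genes of somite formation that lie side by side, named 5 and 3 peaks of an 11-peak cluster on chromosome 3, and LOC101732842 the other 3. All 5 peaks of *gata2*, a factor of ventral mesoderm and blood, lay in 12811 bp, and all 4 of the muscle gene *myf5* were members. *meis3*, a homeobox gene of the hindbrain (7 of 11), and *eya1* (5 of 8) had part of theirs in a cluster. *eya1* is counted on this list although it encodes the phosphatase and cofactor of sensory placodes described above.

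Of the Hes genes of chromosome 7, the Notch list held *hes5.5* and *hes9.1*, while *hes5.8* and *hes5.9* were not on it and are not counted. It also held *dll1*, a Notch ligand (5 of 6 peaks, 13176 bp of chromosome 5). Another gene of the list was *lfng*, a glycosyltransferase that modifies Notch (4 peaks of a 10-peak cluster). The *lfng* cluster was compact for its size, with 10 peaks in 18513 bp of chromosome 9 and a median gap of 766 bp. With *hes6.1*, 5 of 8 Notch and Hes genes had a peak in a dense cluster, and 3 of 8 had 3 or more. Of the 3 genes with 5 or more peaks 2 had one, too few to read against the 62.1% of all such genes. Of 7 Hedgehog genes, 3 had a peak in a dense cluster. They were the 3 with 5 or more peaks, again too few for that comparison. The transcription factor genes *gli1* (all 7 peaks, 27165 bp of chromosome 2) and *gli3* (6 of 7) and the co-receptor gene *gas1* (4 of 9) were these. Genes of general cell functions served for comparison. Only 3 of that list had a named peak, but *eef1g*, a translation elongation factor, and *cirbp*, a cold-inducible RNA-binding protein, had all 5 of theirs in dense clusters, and no other gene of that list had 5 or more.

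**Figure D4:**
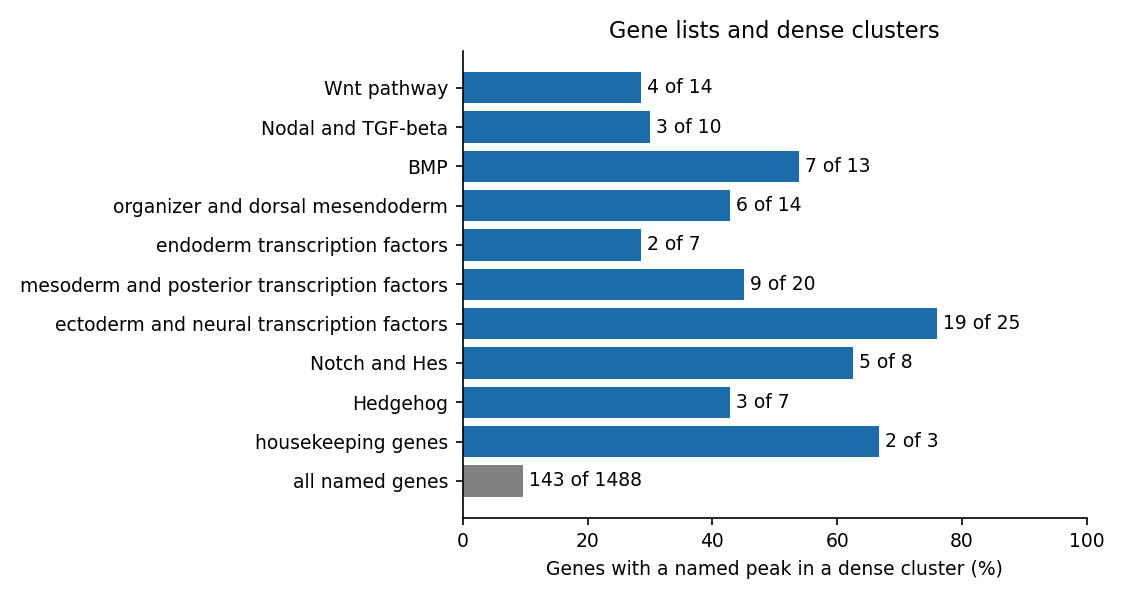
Percent of the genes of each list (x axis) that named at least 1 peak in a dense cluster, with the number of genes beside each bar. Blue bars are the 10 lists and the grey bar all 1488 named genes. The lists were chosen with earlier results of these data known. The share ran from 4 of 14 Wnt pathway genes to 19 of 25 ectoderm and neural transcription factors, against 143 of 1488 for all, and most genes in that last group have 1 named peak.

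Peak width was not used to choose the members. Members had a median width of 445 bp (quartiles 351 and 573.5 bp), and the other chromosome peaks 375 bp (311 and 474 bp), a difference of 70 bp. Peaks at least 500 bp wide were 37.5% of members and 20.9% of the others, and peaks at least 1000 bp wide 2.45% and 0.969%. The difference was positive on each of the 10 chromosomes, between 29 bp on chromosome 10 and 92 bp on chromosome 2. It did not begin at chains of 5. Single peaks had a median of 359 bp, and the median was 385, 405 and 422.5 bp in chains of 2, 3 and 4, 429 bp in chains of 5, 437 bp in chains of 6 to 7, 473 bp in chains of 8 to 10 and 456 bp in chains of 11 or more. Set against chains of 2 to 4 alone, the difference was 46 bp. Peaks of 1 list are not replicates and a wide peak also shortens the gap beside it, so no test was made.

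**Figure D5:**
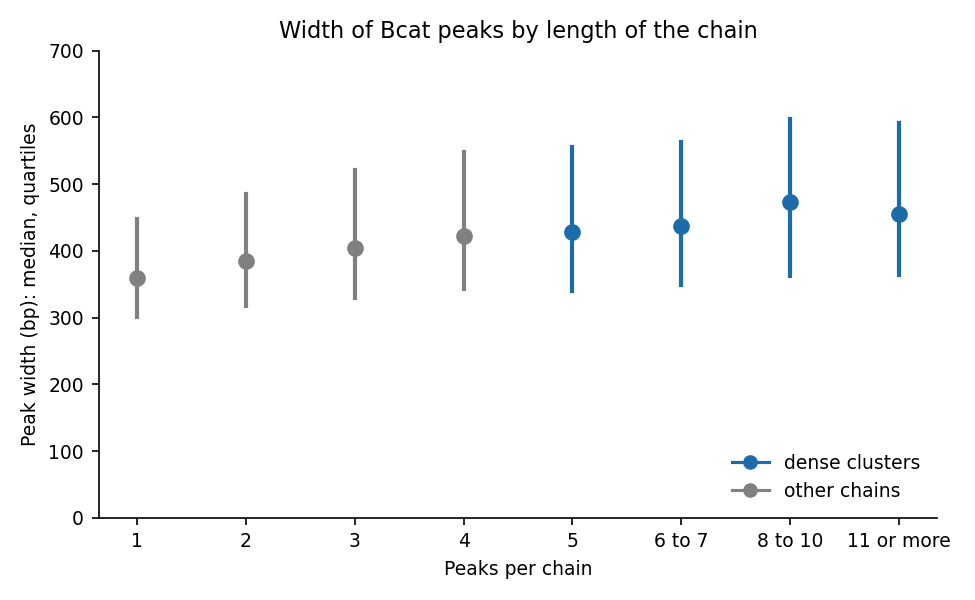
Width of Bcat peaks in bp (y axis) by the number of peaks in their chain (x axis). Points are medians and lines the quartiles, blue for dense clusters and grey for other chains. Medians went up from 359 bp for single peaks to 422.5 bp for chains of 4 and lay between 429 and 473 bp in dense clusters.

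Within the clusters, inner peaks were wider than those at either end (medians of 454 bp for 1333 peaks and 414.5 bp for 546). The widest peak was an inner one in 194 of 273 clusters (71.1%), about the share that inner peaks have among the members (70.9%). Members whose nearest neighbour was under 500 bp away had a median width of 453.5 bp, and those whose nearest neighbour was 8000 bp or more away one of 413 bp. Named members had a median width of 446.5 bp and unnamed members one of 444 bp. The widest named member was a *cirbp* peak of 4587 bp on chromosome 1 (81000629 to 81005215), at the first position of its cluster, and the next was the 1952 bp peak of *id3*. One peak each of *chd7* (1747 bp), which encodes a chromatin remodeller, and *gata3* (1460 bp) followed.

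The clusters were spread over all 10 chromosomes. Members were 14.8% to 20.3% of the peaks of chromosomes 1 to 9, with the highest share on chromosome 2, and 9.20% on chromosome 10, which had 6 clusters and 39 members. The list as a whole was not sparser there. Chromosome 10 had 10.8 peaks per Mb between its first and last peak, the highest of the 10, against 7.20 to 9.34 on the others. Clusters also stood near each other. In 17 pairs the next cluster began within 50 kb, and 6 of these pairs named a gene in common, at *msx1*, *irx2*, *irx3*, *sox3* and, for 2 pairs, *otx1*.

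The study also describes windows of DNA bound by both Sox17 and Bcat near genes that both regulate. The positions of 191 such windows of 150 bp were set against the clusters. Of the 120 windows that met a peak of the list, 14 met a member (11.7%), below the 17.5% of chromosome peaks that are members. How windows were selected affects these shares, and they were not tested. The 14 lay in 6 clusters and belonged to *dkk1* (5 windows), *gli1* (4), *dkkx* (2), *lhx5*, *nodal1* and *ventx3.1* (1 each). At *dkk1* peaks 1, 2, 3, 5 and 6 in order had a window and peak 4 had none, and at *gli1* peaks 2, 3, 5 and 7 had one. Another window of *lhx5* and another of *ventx3.1* fell between peaks of their cluster. The window lay with its centre inside the member in all 14 cases.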

How the data were processed

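Peak positions were deposited as 1 list of starts and ends in bp, with no score. Per the methods, the authors made it from v9.0 alignments (Trimmomatic, bowtie2 2.3.4.7) after Picard and samtools had taken out duplicates and reads with several matches. MACS2 at its default options, set against input DNA, called the peaks, and IDR on pseudoreplicates of the single Bcat library filtered them, so a locus under that threshold leaves no trace. Starts were taken to count from 0, as in BED files, and are written counting from 1. If they already counted from 1, each start would be 1 lower and each width 1 bp greater. A gap is the number of bases between neighbouring peaks.

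Members, gene lists and alternatives were chosen with earlier results of these data known. Genes named are those of the 10 clusters with the most peaks, of the lists, of the enhancers shown, and of the tightest and longest clusters. *chd7*, *ash2l*, *dkkx* and LOC101732842 were named after their values were seen. One gene of the lists is counted but not reported here. The gene tables were used in part, and a gene's listed peaks are those in them. LOC symbols were read from RefSeq (UCB_Xtro_10.0). The chaining code was run on simulated data, where all 20 lists gave back every planted cluster. Planted gaps were under the limit inside a cluster and far over it between clusters. This checks the code only, and not how the limit suits the real peaks. Python 3.11.15 and numpy 2.4.6 were used. No value of the 54 samples was read and no genome sequence was used. The study's own calls from these samples enter through the Sox17-bound peaks, the windows and the table of Bcat-regulated genes.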

Additional observations from a re-analysis of the deposited data

How the results depend on the processing

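The number of clusters follows the rule. It was 111 with a chaining distance of 5000 bp and 417 with 25000 bp, 468 with at least 4 peaks and 170 with at least 6, against 273. Members numbered 689 at 5000 bp and 3118 at 25000 bp, and the median span was 12729 and 38198 bp. The largest cluster lay in the same stretch of chromosome 1 under all 7 ways of chaining, with 17 to 32 peaks. The width difference was 46 bp against chains of 2 to 4 and stayed positive under all 5 alternatives. With at least 3 named peaks required, 1 Nodal and TGF-beta gene and 3 Notch and Hes genes qualified. Over genes with at least 5 named peaks, an alternative chosen after seeing the data, 1 of 1 and 2 of 3 had a peak in a dense cluster. Against 3 of 10 and 5 of 8, the counts fell but the shares rose. For the lists, counts and not shares were compared. Over all named genes the count went from 143 to 100, while the share went from 9.61% to 62.1%. The other 37 of 50 alternatives moved a value by 1.5 times or less. Only the width difference could have turned its direction, since counts, spans and gaps cannot be negative. No paired analysis was possible because there is a single peak list with no replicates. Unknown depth limits what a missing peak can show, and the tables used here name 40.1% of members.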
